A study of Mus musculus with 2 samples.

Results

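The cell cycle genes described here are 34 mouse genes chosen by symbol, without reference to their level or their difference between groups. They comprise 12 genes of the start and course of DNA replication (S members), 17 genes of late S phase, G2 and mitosis (G2/M members) and 5 genes tied to proliferation that mark no single phase (Ccnd1, Cdkn1a, Stmn1, Hmgb2 and Tubb5). All 34 were present in both count matrices, among 31053 listed genes. They were measured in 2 droplet single-cell RNA sequencing libraries of liver from C57BL/6 mice, 1 library per group. The pIVCL library came from liver 6 weeks after partial ligation of the inferior vena cava, a vessel narrowing that congests the liver, begun when mice were 8 to 10 weeks old. The Control library is titled healthy. The labels attach the same ligation text to both samples, and neither a sham operation, nor how many animals were pooled, nor how isolated hepatocytes and non-parenchymal cells were mixed is given in the sources used here. The question was which cell types held cells with G2/M RNA, and how S members stood against G2/M members, in each library.

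The Control library held 3574 barcodes with 24637681 UMIs (distinct RNA molecules), and the pIVCL library 7042 barcodes with 38154000 UMIs. After filtering there remained 2718 Control cells (median depth 5263.5 UMIs) and 5443 pIVCL cells (median depth 2005 UMIs), and 9 of the kept barcodes occurred in both libraries. Cells were grouped with the cell cycle genes left out, and each cluster was named from marker genes, so that "hepatocyte-like" is a name from markers and not a sorted population. LSEC stands for liver sinusoidal endothelial cell, the fenestrated lining of the liver's capillaries, and Kupffer cells are its resident macrophages. Hepatocyte marker RNA was found in every class: its 10 markers summed to 4683 CPM (UMIs scaled so that the genes of each group of cells share 1 common total) in Control LSEC-like cells and 17120 CPM in pIVCL B cell-like cells that were not G2/M-positive (defined below), against 100640 and 93361 CPM in such hepatocyte-like cells. With 1 library per group no test was possible, so differences compare these libraries and not the conditions, and all intervals are 95% and cover counting error only.

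Dividing cells pass from G1 into S phase, when DNA is copied, and then through G2 into mitosis. Entry into S phase is switched on by E2F transcription factors once the retinoblastoma protein is phosphorylated, and late genes are held off in resting cells by the DREAM complex at CHR elements and driven in G2 by B-MYB and FOXM1. Adult hepatocytes are mostly quiescent and often polyploid, and they re-enter the cycle after tissue loss or injury, while Kupffer cells renew by local division.

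Promoters of 4 G2/M members and 2 S members are printed to show the motif letters that were searched. Of the 34 members, 27 had an entry in the RefSeq promoter table (GRCm38.p6), which runs from 250 bases before to 50 bases after the start of transcription. Searched on both strands were TTTGAA and TTTAAA (the CHR element), CCAAT (bound by NF-Y), and TTTGGCGC and TTTCCCGC (E2F sites). TTTAAA is its own reverse complement, and no set of letters contains another, though matches can overlap at their ends. Only the 250 bases before the start are printed, 5′ to 3′, with matches to any of these letters on either strand in capitals.
Cdc20, chr4:118437344-118437593, minus strand: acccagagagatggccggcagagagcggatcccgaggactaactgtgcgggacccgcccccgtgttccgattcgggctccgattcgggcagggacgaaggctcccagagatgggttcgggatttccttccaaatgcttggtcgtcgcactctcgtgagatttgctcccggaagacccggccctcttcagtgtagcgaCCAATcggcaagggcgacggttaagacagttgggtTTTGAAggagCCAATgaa
Ube2c, chr2:164769679-164769928, plus strand: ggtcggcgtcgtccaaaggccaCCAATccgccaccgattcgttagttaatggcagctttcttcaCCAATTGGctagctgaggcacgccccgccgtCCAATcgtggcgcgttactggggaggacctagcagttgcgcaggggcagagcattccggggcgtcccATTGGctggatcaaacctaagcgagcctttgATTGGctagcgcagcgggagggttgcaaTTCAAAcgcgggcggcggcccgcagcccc
Ccnb1, chr13:100786487-100786736, minus strand: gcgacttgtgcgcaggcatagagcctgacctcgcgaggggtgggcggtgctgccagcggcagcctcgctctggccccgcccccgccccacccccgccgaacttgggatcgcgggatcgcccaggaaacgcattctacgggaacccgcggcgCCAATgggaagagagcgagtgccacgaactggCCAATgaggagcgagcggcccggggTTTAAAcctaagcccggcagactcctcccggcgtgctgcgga
Cdk1, chr10:69352913-69353162, minus strand: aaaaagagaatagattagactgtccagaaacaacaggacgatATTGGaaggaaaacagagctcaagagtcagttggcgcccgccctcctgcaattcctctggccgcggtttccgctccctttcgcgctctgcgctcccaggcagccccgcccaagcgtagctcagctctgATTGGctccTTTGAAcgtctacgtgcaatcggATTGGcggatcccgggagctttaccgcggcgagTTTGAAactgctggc
Mcm5, chr8:75109259-75109508, plus strand: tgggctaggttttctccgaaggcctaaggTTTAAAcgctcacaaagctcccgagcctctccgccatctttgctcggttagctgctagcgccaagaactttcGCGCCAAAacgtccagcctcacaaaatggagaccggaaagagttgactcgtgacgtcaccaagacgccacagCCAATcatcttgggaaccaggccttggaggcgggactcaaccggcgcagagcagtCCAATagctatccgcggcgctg
Mcm6, chr1:128359706-128359955, minus strand: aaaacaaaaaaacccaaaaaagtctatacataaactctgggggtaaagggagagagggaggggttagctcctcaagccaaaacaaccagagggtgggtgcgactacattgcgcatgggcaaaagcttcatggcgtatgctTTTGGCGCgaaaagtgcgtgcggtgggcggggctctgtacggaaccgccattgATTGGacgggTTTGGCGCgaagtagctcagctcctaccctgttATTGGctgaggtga
A CHR match was present in 13 of 14 G2/M members with an entry (92.9%), the exception being Bub1, in 4 of 10 S members (40%) and in 30.6% of 27025 genes with an entry. CHR and CCAAT together were found in 12 of the 14 G2/M members (85.7%), in 3 of 10 S members and in 12.2% of all genes. The CHR of Cdc20 began 18 bases before the start and that of Ccnb1 42 bases before it, each with CCAAT upstream. E2F letters were found in 4 of 10 S members (Mcm3, Mcm5, Mcm6 and Mcm7), in 0 of 14 G2/M members and in 1.80% of all genes. In the other cell cycle genes, a list that holds no member, CHR letters occurred in 32 of 46 G2/M genes (69.6%) and E2F letters in 11 of 33 S genes (33.3%). These matches describe letters in a window and say nothing about binding in these cells.

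**Figure D1:**
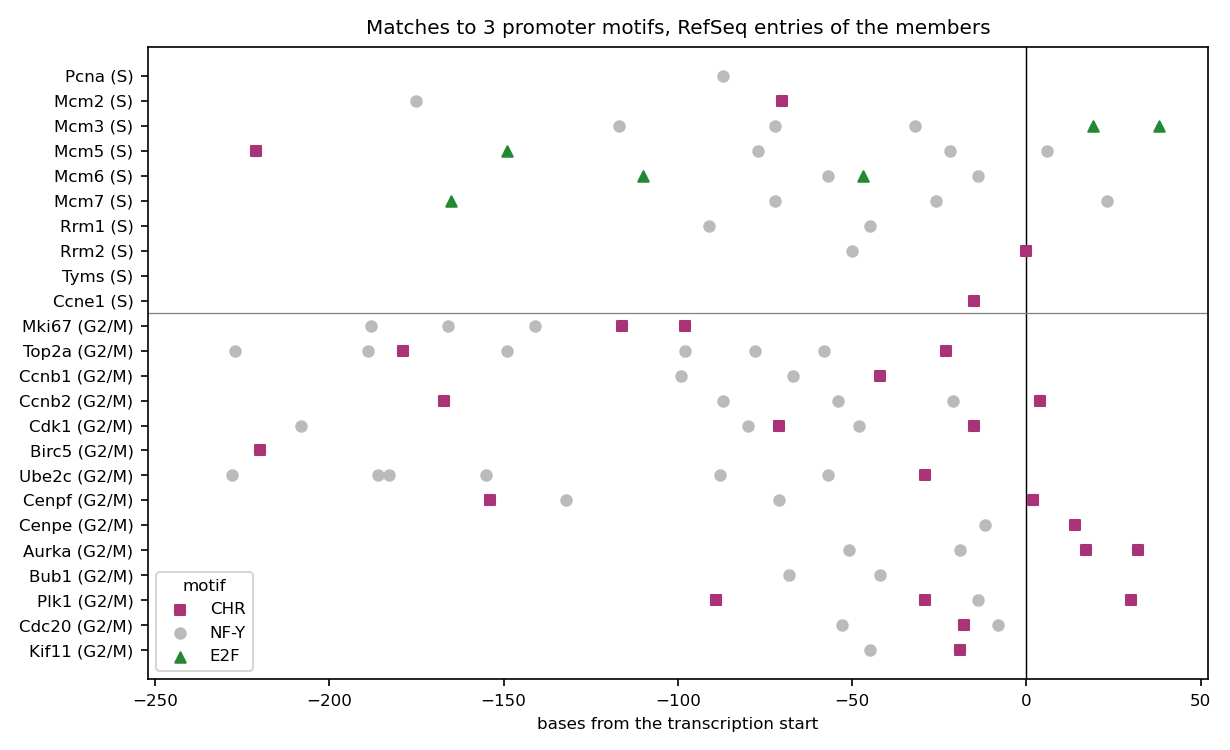
Matches to the CHR, CCAAT (NF-Y) and E2F letters, by distance in bases from the start of transcription (x axis), for the 24 S and G2/M members with a promoter entry (y axis; the first entry where a gene has 2). CHR squares lie in 13 of the 14 G2/M members and E2F triangles in 4 of the 10 S members.

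To see which cell types held G2/M RNA, each cell was thinned to 1000 UMIs, shallower cells being left out (408 Control and 1210 pIVCL), and a cell was called G2/M-positive when at least 2 different G2/M members still held a UMI. S-positive cells were defined in the same way over the S members. G2/M-positive cells numbered 26 of 2310 in Control (1.13%, interval 0.737% to 1.64%) and 105 of 4233 in pIVCL (2.48%, 2.03% to 2.99%), a ratio of 2.20 (1.42 to 3.53). The wider lists used below are the other cell cycle genes named above, which hold no member. With their 59 G2/M genes in place of the members the order turned, at 28.9% and 27.0% (ratio 0.935, 0.849 to 1.03). Far more cells passed with that list, among them 20.2% of Control and 24.8% of pIVCL B cell-like cells. The 2 calls are therefore not the same measure. At 2000 UMIs per cell, with the members, the ratio was 3.86. S-positive shares lay close together, at 56 Control cells (2.42%) and 104 pIVCL cells (2.46%), a ratio of 1.01 (0.726 to 1.43). Without thinning, the G2/M share was 2.24% in Control and 4.54% in pIVCL, and the S share 24.4% and 11.6%, with the deeper Control library higher in the S share. B cell-like cells, most of which rest in blood and liver, set a low reference for pIVCL only, of 2 positive of 937 cells (0.213%, median depth of the class 1839.5 UMIs). In Control they gave 1 of 129 (0.775%, 0.0196% to 4.24%), an interval that includes the 1.13% over all Control cells. Cholangiocyte-like cells held 0 positive of 26 in Control and of 49 in pIVCL, which allows shares of up to 11.5% and 6.12%, and plasma cell-like and erythroid-like cells were too few to set a reference.

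G2/M-positive cells came from 8 of 19 named classes in Control and 13 of 19 in pIVCL. In the Control library 12 of the 26 were Kupffer-like (46.2%) and 4 hepatocyte-like (15.4%). In the pIVCL library 46 of the 105 were hepatocyte-like (43.8%), with 11 LSEC-like and 11 Kupffer-like (10.5% each). The class make-up of the libraries differed as well: hepatocyte-like cells were 15.5% of kept Control cells and 32.4% of kept pIVCL cells, and LSEC-like cells 27.4% and 8.76%, so shares within classes follow.

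Hepatocyte-like cells were G2/M-positive in 4 of 331 in Control (1.21%, 0.330% to 3.07%) and 46 of 1346 in pIVCL (3.42%, 2.51% to 4.53%), a ratio of 2.83 (1.03 to 10.8). S-positive hepatocyte-like cells numbered 0 of 331 in Control and 13 of 1346 in pIVCL (0.966%), the lowest values of the 20 thinning draws described next, in which Control gave 0 to 2 (median 1) and pIVCL 13 to 26 (median 18). The exact upper limit of the Control share was 1.11%. Over 20 separate thinning draws Control gave 1 to 5 positive cells and pIVCL 46 to 55, and the pIVCL share was higher in all 20. All 10 hepatocyte markers were detected in the positive cells of each library, summing to 106045 CPM in Control and 70382 CPM in pIVCL. Positive pIVCL hepatocyte-like cells were deeper than negative ones, with a median of 15665.5 against 10224 UMIs before thinning, while in Control the order was the reverse, at 16773.5 against 22106 UMIs. The 2 libraries filled different hepatocyte-like clusters, however. Cluster 12 was almost all Control (256 cells, beside 3 from pIVCL), and cluster 2 almost all pIVCL (788 cells, beside 9 from Control), with 34 of its 786 thinned pIVCL cells positive (4.33%). Of the 9 Control cells of cluster 2, 1 was positive (11.1%), the opposite order to the class. In cluster 12 the counts were 1 of 250 thinned Control cells (0.40%) and 0 of 3 from pIVCL. In clusters 4 and 5 together, which both libraries shared, 2 of 72 were positive in Control (2.78%, 0.338% to 9.68%) and 12 of 557 in pIVCL (2.15%, 1.12% to 3.73%). The order thus turned (ratio 0.776, 0.173 to 7.13) when clusters 2 and 12 were left out. Clusters 4 and 5 were shallow, however, with median depths of 688.5 and 2220 UMIs in Control and 804 and 1688.5 UMIs in pIVCL. The medians were 26680.5 UMIs in Control cells of cluster 12 and 20681 UMIs in pIVCL cells of cluster 2. Of the 155 Control cells in clusters 4 and 5 only those 72 were deep enough to thin. Median mitochondrial share was 17.6% in all Control and 3.77% in all pIVCL hepatocyte-like cells, and 19.3% and 14.8% in the thinned cells that were not positive. With no mitochondrial limit the ratio was 3.79, and with at least 1000 UMIs and at most 10% mitochondrial UMIs it was 1.36 (0.316 to 12.2).

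By position along the lobule, hepatocyte-like cells with more UMIs of 14 pericentral genes than of 14 periportal genes were called pericentral-leaning, a split along a scale and not a cell type. In pIVCL, 12 of 286 pericentral-leaning cells (4.20%, 2.19% to 7.21%) and 34 of 1034 periportal-leaning cells (3.29%, 2.29% to 4.56%) were G2/M-positive, with overlapping intervals. In Control the counts were 0 of 138 (exact upper limit 2.64%) and 3 of 187 (1.60%), and 1 of 6 with equal UMIs of both lists. Median depths of all pericentral-leaning and periportal-leaning cells were 16477 and 9079 UMIs in Control. They were 12207 and 2331 UMIs in pIVCL. Cdkn1a, which encodes the p53-induced cyclin-dependent kinase inhibitor p21, stood at 31.0 CPM in pericentral-leaning and 36.3 CPM in periportal-leaning Control cells, and at 103 and 47.3 CPM in the pIVCL ones. Ccnd1, which encodes the G1 cyclin D1, stood at 117 and 154 CPM in Control and at 169 and 173 CPM in pIVCL. The lists behind this lean differed between the libraries themselves. In hepatocyte-like cells 13 of 14 pericentral genes had a lower CPM in pIVCL (median log2 ratio −1.14), beside 5388 of the 11205 genes measured. Those that differed most were the glutamate transporter gene Slc1a2 (352 and 5.40 CPM in Control and pIVCL), the glutamine synthetase gene Glul (1681 and 48.6 CPM), Oat (1085 and 160.1 CPM) and Cyp2e1 (3430 and 692 CPM). Of 14 periportal genes 9 had a higher CPM in pIVCL (64.3%, median 0.17), beside 51.9% of all genes. The 4 periportal genes that differed most were Cyp2f2 (581 and 1101 CPM), Hsd17b13 (204 and 371 CPM), Gls2 (181 and 319.6 CPM) and, lower in pIVCL, Pck1 (1619.5 and 1126 CPM).

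Among endothelial cells, LSEC-like cells were G2/M-positive in 2 of 741 in Control (0.270%, 0.0327% to 0.972%) and 11 of 473 in pIVCL (2.33%, 1.17% to 4.12%), a ratio of 8.62 (1.88 to 80.0). The pIVCL share was higher in all 20 thinning draws, with 2 to 3 Control and 7 to 11 pIVCL cells. S-positive LSEC-like cells were 19 (2.56%) in Control and 20 (4.23%) in pIVCL. Here too the libraries filled different clusters, with 727 Control and 6 pIVCL cells in cluster 3 and 19 and 471 in cluster 6. Both Control positive cells and all 11 pIVCL positive cells were in cluster 6, where 16 Control and 467 pIVCL cells were thinned, so a cluster that is mostly 1 library carries the comparison. Within cluster 6 the order turned, at 12.5% in Control (2 of 16) and 2.36% in pIVCL (11 of 467). The ratio was 1.04 (0.863 to 1.26) with the wider G2/M list. With cell cycle genes kept in clustering the shares were 0% in Control and 0.234% in pIVCL. Vascular endothelial-like cells were positive in 0 of 166 Control cells, which allows a share of up to 1.81% (exact upper limit 2.20%), and in 1 of 66 pIVCL cells.

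Kupffer-like cells ran the other way, with 12 of 239 positive in Control (5.02%, 2.62% to 8.61%) and 11 of 371 in pIVCL (2.96%, 1.49% to 5.24%), a ratio of 0.591 (0.236 to 1.46). The pIVCL share was lower in all 20 draws, but the interval of the ratio includes 1. The shares were 6.67% and 2.62% in cluster 1, which held 57.5% of the Control and 80.3% of the pIVCL cells of the class, and 3.73% and 3.52% in cluster 10. Of the 12 positive Control cells 7 were in cluster 1, with a median of 1359 UMIs and 35 G2/M UMIs in all. These 7 cells held as much hepatocyte as Kupffer marker RNA (18998 CPM each). The other thinned Control cells of cluster 1 held 14801 and 28750 CPM. In pIVCL the 6 positive cells of cluster 1 held 17838 CPM of hepatocyte and 24378 CPM of Kupffer marker RNA. The other thinned pIVCL cells of cluster 1 held 25761 and 23963 CPM. Of the 777 pIVCL cells of the class, 406 were left out as too shallow. Their S-positive cells were 15 (6.28%) in Control and 16 (4.31%) in pIVCL. T cell-like cells were positive in 2 of 182 Control cells (1.10%) and 4 of 283 pIVCL cells (1.41%), and their order was split 10 to 10 over the draws. B cell-like cells were positive in 1 of 129 and 2 of 937, with the pIVCL share higher in 6 and lower in 14 draws. Of the 6 classes with at least 50 thinned cells in each library, 4 had a higher G2/M-positive share in pIVCL, and 2 did with another thinning seed. Of those 4, the vascular endothelial-like difference rests on 1 pIVCL cell and was seen in 8 of the 20 draws.

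Several myeloid classes were too small in Control for a comparison. In pIVCL, 9 of 80 neutrophil-like cells were positive (11.2%, 5.28% to 20.3%), all of them among the 31 thinned cells of 1 sub-cluster (29.03%) with all 8 neutrophil markers detected. Type 2 conventional dendritic cell-like cells (cDC2-like) were positive in 7 of 42 pIVCL cells (16.7%, 6.97% to 31.4%), and monocyte/macrophage-like cells in 6 of 103 (5.83%, 2.17% to 12.2%). The 7 positive cDC2-like cells held more monocyte/macrophage marker RNA (2551 CPM) than marker RNA of their own class (945 CPM), as did the other pIVCL cells of that cluster (2255 and 1436 CPM). The Control library held 3, 15 and 12 thinned cells of these classes, with 0 positive. Type 1 conventional dendritic cell-like cells were positive in 3 of 14 Control and 2 of 49 pIVCL cells. Of the single positive cells of other Control classes, the mesothelial-like one held 41656 UMIs and more Kupffer marker RNA (12219 CPM) than RNA of its own class (2113 CPM), and the hepatic stellate-like one held more smooth muscle marker RNA (20002 CPM) than its own (3449 CPM). The doublet caller marked 8 Control and 3 pIVCL barcodes, so doublets were in effect not removed, and their part in these counts was not tested.

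**Figure D2:**
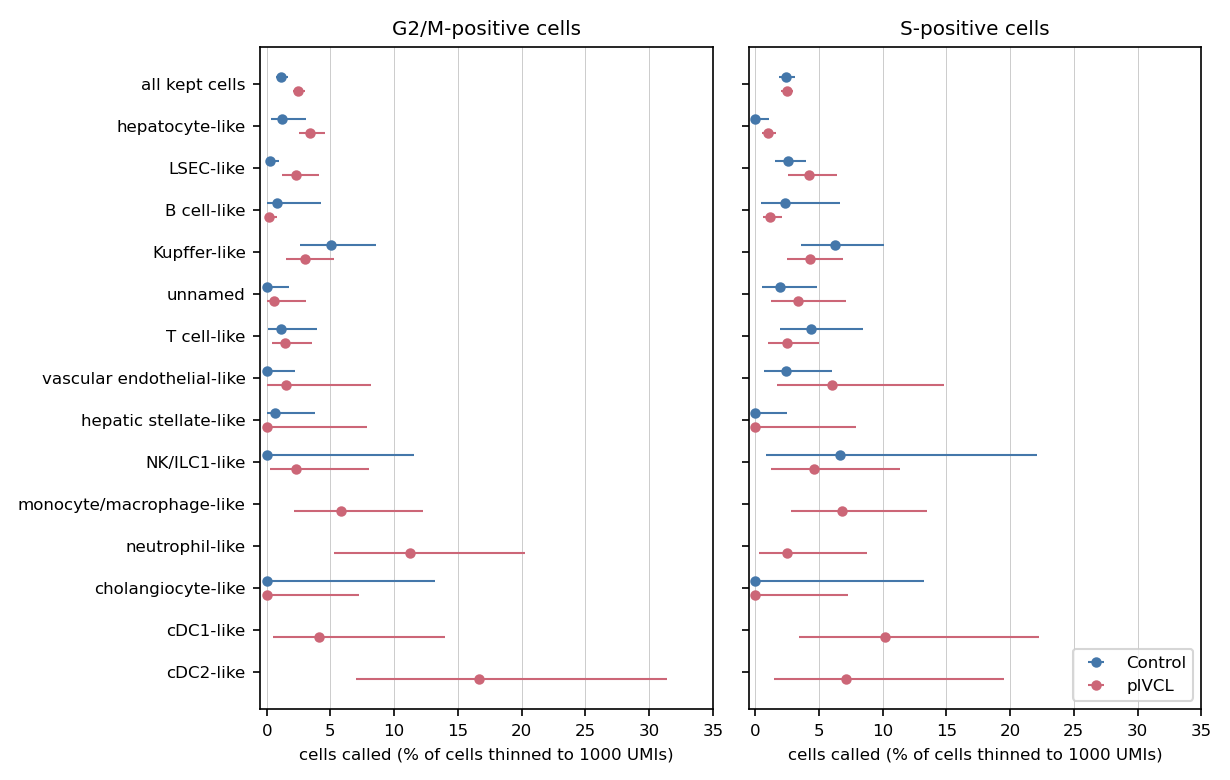
Share of thinned cells called G2/M-positive (left panel) and S-positive (right panel), in percent, per class (y axis) and library, with 95% exact binomial intervals; a class is drawn for a library only where it held at least 20 thinned cells. Hepatocyte-like and LSEC-like points lie further right in pIVCL than in Control in the left panel, while the Kupffer-like points are in the opposite order.

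In pIVCL neutrophil-like cells, whose precursors divide before the mature cell stops, Ube2c had 81 UMIs in 8 cells and Mki67 55 UMIs in 10 cells, and the 9 positive cells held 98.2% of the G2/M UMIs of the class. Their S part, the S share of S and G2/M UMIs, was 13.3% over the class (60 S and 390 G2/M UMIs). In cDC2-like cells Mki67 had 43 UMIs in 9 cells and Ube2c 42 UMIs in 6 cells, with an S part of 23.5% (80 and 260 UMIs). In monocyte/macrophage-like cells Mki67 had 64 UMIs in 14 cells and Ube2c 59 UMIs in 15 cells, with an S part of 39.9% (290 and 436 UMIs). Cdkn1a stood at 232 CPM in the monocyte/macrophage-like cells and 22.3 CPM in the neutrophil-like cells of that library.

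Within the positive cells, which were chosen on these genes, Mki67 was the G2/M member most often seen in pIVCL, with a UMI after thinning in 46 of 105 cells (43.8%) and in 9 of 26 Control cells (34.6%). Top2a was seen in 36 and 11 of these cells, Birc5 in 35 and 10, Ube2c in 34 and 10 and Cdk1 in 26 and 3. Ccnb1 was seen in 10 and 2. Members outside the choice were also present: Hmgb2 in 59 pIVCL and 16 Control positive cells, Stmn1 in 55 and 15, Tubb5 in 43 and 16, Ccnd1 in 13 and 4 and Cdkn1a in 10 and 3. Before thinning, however, Ccnd1 was lower in positive cells than in thinned cells positive for neither set. It stood at 79.1 and 257 CPM in Control and at 142 and 172 CPM in pIVCL. Hmgb2, Stmn1, Tubb5 and Cdkn1a were higher in the positive cells of both libraries.

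The G2/M UMIs were concentrated in few cells. The 26 positive Control cells held 70.5% of the 1691 G2/M UMIs of that library, and the 105 positive pIVCL cells held 66.9% of 6873. The 10 cells with the most G2/M UMIs carried 65.8% of the Control total but 20.9% of the pIVCL total. In Control T cell-like cells, 2 cells with 164 and 141 UMIs carried 96.5% of all G2/M UMIs of the class, and in Control LSEC-like cells 2 cells with 109 and 102 UMIs carried 67.6%. Intervals on summed UMIs, which treat each UMI as separate, are therefore narrower than the spread between cells would make them.

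S members made up less of the combined S and G2/M UMIs in pIVCL than in Control. Over all kept cells the S part was 68.4% in Control (3664 S and 1691 G2/M UMIs, 67.2% to 69.7%) and 40.6% in pIVCL (4688 and 6873 UMIs, 39.7% to 41.5%). It was 50.6% (271 and 265 UMIs) against 30.2% (1804 and 4160 UMIs) in hepatocyte-like cells, 82.9% against 58.4% in LSEC-like cells and 57.5% against 35.2% in Kupffer-like cells. B cell-like cells lay at 79.2% and 75.0% with overlapping intervals, and T cell-like cells in the reverse order at 53.4% and 67.1%, where the 2 Control cells above supply most G2/M UMIs. In Kupffer-like cells 12 positive Control and 11 positive pIVCL cells supply 66.8% and 77.6% of the G2/M UMIs. In thinned cells the order of the S part turned in LSEC-like cluster 6 and hepatocyte-like cluster 2, on few Control cells. In cluster 6 the 2 positive Control cells held 68 S and 211 G2/M UMIs and the other 14 held 18 and 1. In pIVCL 11 positive cells held 260 and 496 and the other 456 held 583 and 103. Cluster 2 held 7 and 51 (1 cell) and 16 and 105 (8 cells) in Control. In pIVCL it held 412 and 2410 (34) and 1164 and 1513 (752). Clusters 4 and 5 held too few Control UMIs to compare.

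Within G2/M-positive cells the S part was alike in the 2 libraries, at 19.9% (17.9% to 22.0%) in Control and 20.4% (19.4% to 21.5%) in pIVCL. These cells were chosen for their G2/M UMIs, so the low S part in them is set by the choice, and the values are given side by side only. Positive Kupffer-like cells stood at 10.8% in both libraries, positive hepatocyte-like cells at 25.1% in Control (4 cells) and 14.8% in pIVCL (46 cells), and positive LSEC-like cells at 24.4% (2 cells) and 34.4% (11 cells). In thinned cells positive for neither set, the S part was 88.3% in Control and 59.3% in pIVCL, and G2/M members summed to 20.3 and 76.3 CPM. In hepatocyte-like cells positive for neither, G2/M members summed to 18.2 CPM in Control and 86.5 CPM in pIVCL, and the part of free RNA in this was not tested. A single uncalled Control cell supplied 104 of those 124 Control UMIs, and without it the Control sum was 2.96 CPM. The richest uncalled pIVCL cell held 154 G2/M UMIs, and without it the pIVCL sum was 77.3 CPM, so cells rich in G2/M RNA remained among those not called. Of the S-positive cells, 5 of 56 in Control and 24 of 104 in pIVCL were also G2/M-positive. Over all thinned cells the G2/M-positive shares were 1.13% and 2.48%.

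**Figure D3:**
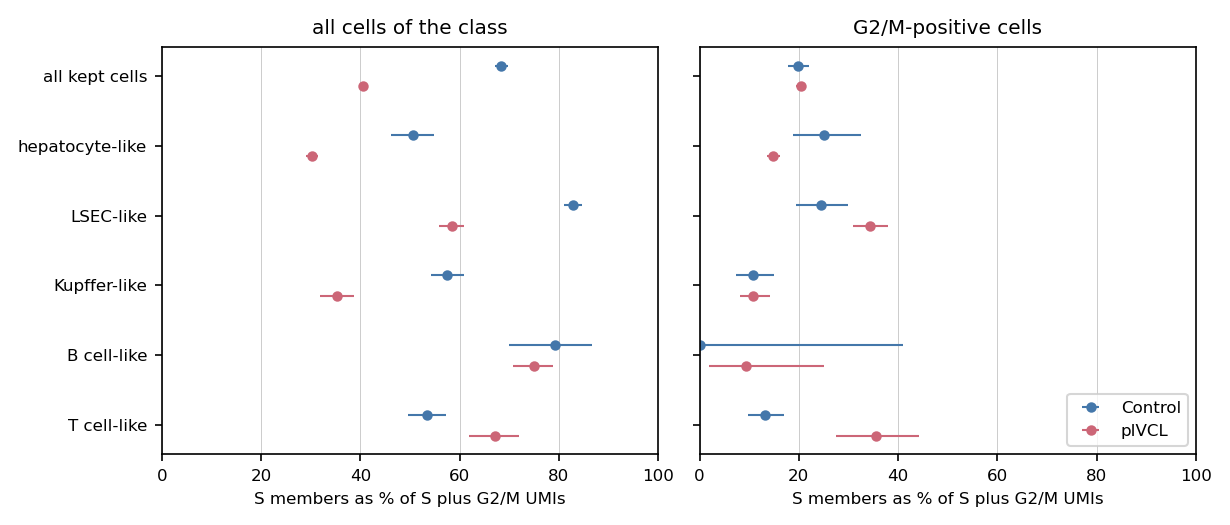
UMIs of the 12 S members as a percent of the UMIs of the 12 S and 17 G2/M members (x axis), per class (y axis) and library, in all cells (left panel) and in G2/M-positive cells (right panel), with 95% exact binomial intervals that treat each UMI as separate. Over all cells the S part was 68.4% in Control and 40.6% in pIVCL, and in G2/M-positive cells 19.9% and 20.4%.

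The levels of single members were then summed over all kept cells of each library and given as CPM, with log2 ratios (pIVCL over Control) after adding 5 CPM to both, which understates the ratio of low genes. All 34 members had at least 20 UMIs over both libraries, and 26 were above 0 on this scale, beside 33.0% of the 14529 genes measured. The median of the members was 0.46, beside −0.16 over all those genes. A log2 ratio of at least 1 was reached by 8 members on the higher side, where 1.61% of all genes stood, and by 1 member on the lower side, where 7.62% stood. The 17 G2/M members were all above 0 (median 0.86), and 6 of 12 S members were (median −0.01).

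Of the S members, the subunits of the MCM2-7 helicase, which unwinds DNA at replication forks, were uneven. Mcm3 had 863 UMIs (43.6 CPM) in Control and 526 UMIs (19.1 CPM) in pIVCL, a log2 ratio of −1.02 and the only member past −1. Mcm4 was also lower, at 15.0 CPM in Control and 8.66 CPM in pIVCL (−0.55). The remaining subunits differed less: Mcm2 stood at 11.9 and 11.1 CPM, Mcm5 at 13.5 and 13.2 CPM, Mcm6 at 19.4 and 19.5 CPM and Mcm7 at 14.8 and 18.3 CPM in Control and pIVCL. Subunits of 1 complex thus did not share a direction across the library totals. Mcm3 UMIs were found in 44.5% of Control LSEC-like cells, a class that was 27.4% of that library, and in that class its level was nearly equal, at 89.5 and 84.9 CPM.

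Rrm2, the regulated small subunit of ribonucleotide reductase, which makes deoxyribonucleotides, had 65 UMIs (3.29 CPM) in Control and 401 UMIs (14.5 CPM) in pIVCL, a ratio of 4.42 (3.40 to 5.84) and a log2 ratio of 1.24. Its large subunit Rrm1 was nearly equal, at 22.6 and 22.0 CPM (−0.03). Tyms, thymidylate synthase, stood at 10.5 and 14.2 CPM (0.31). Pcna, the sliding clamp of the replicative polymerases, had 554 UMIs (28.0 CPM) in Control and 706 UMIs (25.6 CPM) in pIVCL, with a ratio interval that includes 1 (0.816 to 1.02). The E-type cyclins, partners of CDK2 at the start of S phase, were scarce, with 14 and 49 UMIs of Ccne1 (0.708 and 1.78 CPM) and 37 and 52 UMIs of Ccne2 (1.87 and 1.88 CPM). Rrm2 was the 1 S member past a log2 ratio of 1 over all cells.

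Among the G2/M members, the mitotic cyclins and their kinase came first. Cdk1, the kinase that drives mitosis, had 121 UMIs (6.12 CPM) in Control and 407 UMIs (14.7 CPM) in pIVCL (log2 ratio 0.83). Its partner Ccnb1, cyclin B1, had 40 UMIs (2.02 CPM) and 284 UMIs (10.3 CPM), a ratio of 5.09 (3.65 to 7.27) and a log2 ratio of 1.12. Ccnb2 stood at 4.30 and 14.8 CPM (1.09), and Ccna2, cyclin A2, at 3.54 and 10.2 CPM (0.83). All 4 were higher in the pIVCL library.

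The anaphase-promoting complex destroys these cyclins, and its activator Cdc20 had 93 UMIs (4.70 CPM) in Control and 533 UMIs (19.3 CPM) in pIVCL, a log2 ratio of 1.33. Ube2c, its ubiquitin-conjugating enzyme, had 149 UMIs (7.53 CPM) and 716 UMIs (25.9 CPM), with a log2 ratio of 1.30. The kinases of mitosis were also higher in pIVCL. Plk1 stood at 1.57 and 6.96 CPM (0.86), Aurka at 1.97 and 5.54 CPM (0.60), Aurkb at 2.93 and 5.76 CPM (0.44) and the checkpoint kinase Bub1 at 0.758 and 2.64 CPM (0.41). Birc5, survivin, which holds AURKB in the chromosomal passenger complex, had 146 UMIs (7.38 CPM) and 614 UMIs (22.2 CPM), with a log2 ratio of 1.14.

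Of the kinetochore and spindle genes, Cenpf had 112 UMIs (5.66 CPM) in Control and 592 UMIs (21.4 CPM) in pIVCL (1.31). The kinetochore motor Cenpe stood at 6.07 and 10.4 CPM (0.47), the spindle motor Kif11 at 1.72 and 6.85 CPM (0.82) and the spindle assembly factor Tpx2 at 4.50 and 12.7 CPM (0.90). Mki67, the Ki-67 antigen that coats mitotic chromosomes, had 240 UMIs (12.1 CPM) and 917 UMIs (33.2 CPM), a log2 ratio of 1.16. Top2a, the topoisomerase that untangles sister chromatids and that, like Mki67, is made from S phase on, had 249 UMIs (12.6 CPM) and 718 UMIs (26.0 CPM), a log2 ratio of 0.82.

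The 5 members without a single phase differed in direction. Stmn1, a microtubule-destabilising protein high in dividing cells, stood at 42.1 CPM in Control and 76.1 CPM in pIVCL (0.78), and the chromatin protein gene Hmgb2 at 110 and 143 CPM (0.37). Cdkn1a stood at 51.4 and 66.7 CPM (0.35). Ccnd1 was lower in pIVCL, at 256 and 171 CPM (−0.57), as was the beta-tubulin gene Tubb5, at 256 and 159 CPM (−0.67). The levels of these genes also differed between classes within a library: Ccnd1 stood at 498 CPM in Control LSEC-like cells and 136 CPM in Control hepatocyte-like cells.

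Hepatocyte-like cells held every member at a higher CPM in pIVCL than in Control. All 34 members reached 20 summed UMIs there and all 34 log2 ratios were above 0, with a median of 1.01 beside 0.01 over the 11205 genes measured, of which 51.9% were above 0. A log2 ratio of at least 1 was reached by 17 members (13 G2/M, 2 S and 2 others), beside 1.32% of all genes, and a ratio of −1 or less by 0 members, beside 1.01% of all genes. G2/M members had a median of 1.27 and S members of 0.62. Without clusters 2 and 12 the median over the 15 members still measured was 0.33. The lower and upper ends of the intervals of those members had medians of −1.12 and 1.43. With all clusters the medians of these ends were 0.63 and 1.37. In the thinned cells positive for neither set, 32 members were measured, 31 were above 0 and the median was 0.61.

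The 4 members with the largest log2 ratios in hepatocyte-like cells were Cdc20, Ube2c, Stmn1 and Cenpf. Cdc20, whose promoter with its CHR is printed above, had 16 UMIs (2.30 CPM) in Control and 431 UMIs (24.5 CPM) in pIVCL, a ratio of 10.6 (6.47 to 18.8) and a log2 ratio of 2.01. Ube2c had 13 UMIs (1.87 CPM) and 384 UMIs (21.8 CPM), a ratio of 11.7 (6.74 to 22.1) and a log2 ratio of 1.97. Stmn1 stood at 17.4 and 65.6 CPM, and Cenpf at 4.03 and 23.3 CPM, with a log2 ratio of 1.65 for each. Both leading genes act with the anaphase-promoting complex.

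Ccnb1 had 7 UMIs (1.01 CPM) in Control hepatocyte-like cells and 240 UMIs (13.6 CPM) in pIVCL ones, a ratio of 13.5 (6.47 to 34.03). Cdk1 had 13 UMIs (1.87 CPM) and 203 UMIs (11.5 CPM), a ratio of 6.17 (3.53 to 11.8). Mki67 stood at 6.91 and 29.2 CPM and Top2a at 3.60 and 16.5 CPM. Control values of these genes rest on few UMIs in few cells, since the 4 positive Control cells held 47.2% of the 265 G2/M UMIs and another cell, of cluster 2 and not called positive after thinning, held 104. Without that cell, a choice made after its values were seen, the median over the 34 members was 1.08 and the S part of Control hepatocyte-like cells 61.8%. Of the S members, Rrm2 stood at 2.59 and 15.7 CPM (log2 ratio 1.45) and Tyms at 2.45 and 11.9 CPM (1.18), while Pcna had 64 UMIs (9.22 CPM) and 252 UMIs (14.3 CPM), a log2 ratio of 0.44. All 6 MCM subunits were higher in pIVCL hepatocyte-like cells, from a log2 ratio of 0.14 for Mcm4 to 0.93 for Mcm6. Mcm5, with its E2F letters printed above, had 9 UMIs (1.30 CPM) and 110 UMIs (6.25 CPM). Mcm3 stood at 1.44 and 4.66 CPM in this class, the opposite order to its library total. Cdkn1a stood at 33.6 and 62.3 CPM (0.80), and Ccnd1 at 136 and 173 CPM (0.34).

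**Figure D4:**
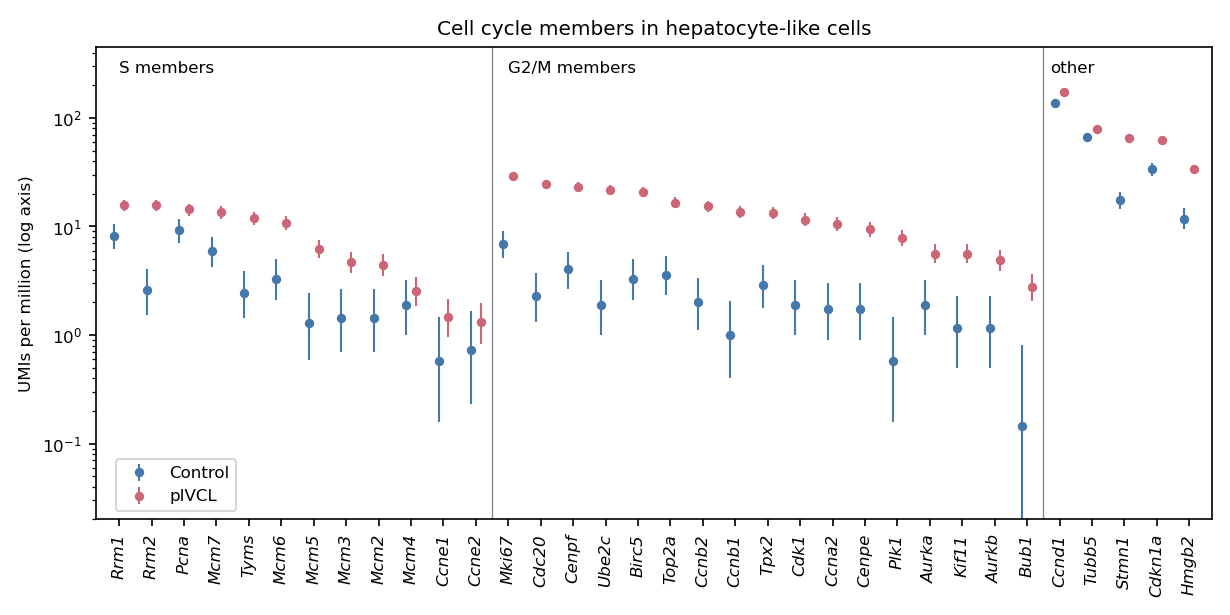
CPM (y axis, UMIs scaled to a common total, log scale) of each of the 34 members (x axis, grouped as S, G2/M and other) in hepatocyte-like cells of the Control and pIVCL libraries, with 95% exact Poisson intervals; the lower end of the interval of Bub1 in Control runs off the axis. The pIVCL point lies above the Control point for all 34 members, with the widest gaps among G2/M members such as Cdc20 (2.30 and 24.5 CPM).

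Lists that hold no member were read in the same cells. Of 103 other cell cycle genes, 94 were measured in hepatocyte-like cells, 87 were above 0 and the median was 0.54. Over all genes 51.9% were above 0 and the median was 0.01. A log2 ratio of 1 was passed by 16 genes of the list, beside 1.32% of all genes, and −1 by 1, beside 1.01%. The 1 lower gene was the replication initiation factor Mcm10, at 29.5 CPM in Control and 9.78 CPM in pIVCL, while the dUTPase gene Dut stood at 11.8 and 23.9 CPM and the transcription factor gene E2f1 at 1.30 and 5.46 CPM. The G2/M genes of that list that differed most were Cdca3 (4.18 and 27.1 CPM), Cdkn3 (1.30 and 13.4 CPM), Ckap2 (2.45 and 16.4 CPM) and Hmmr (2.88 and 16.9 CPM). Members and listed G2/M genes thus ran in the same direction in this class.

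Inhibitors and G1 regulators differed less. Of 6 further cyclin-dependent kinase inhibitors, 4 were measured and 4 were above 0 (median 0.34), beside 51.9% of all genes. They were Cdkn2c at 7.20 and 14.3 CPM, Cdkn2d at 2.30 and 5.86 CPM, Cdkn1b at 15.8 and 17.3 CPM and Cdkn1c at 3.46 and 3.70 CPM. Of 8 G1 cyclins and pocket protein genes 3 were above 0 (37.5%, median −0.06), beside the same 51.9%. Ccnd2, cyclin D2, stood at 6.48 and 1.65 CPM, the pocket protein gene Rbl1 at 0.864 and 2.502 CPM, Cdk6 at 31.1 and 23.5 CPM and the retinoblastoma gene Rb1 at 8.64 and 6.54 CPM. Of 12 p53 targets 8 were above 0 (66.7%, median 0.55), beside 51.9% of all genes. Phlda3, a p53-induced repressor of AKT, had 3 UMIs (0.432 CPM) in Control and 184 UMIs (10.5 CPM) in pIVCL, a ratio of 24.2 (8.16 to 119). Plk2 stood at 6.62 and 16.9 CPM, Bax, an apoptosis effector, at 25.1 and 47.7 CPM, and Trp53inp1 in the reverse order at 157 and 81.1 CPM.

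In LSEC-like cells 28 of 34 members were measured and 26 were above 0, beside 50.4% of all genes, with a median of 0.82. A log2 ratio of 1 was passed by 10 members, beside 6.18% of all genes, and −1 by 0, beside 2.59%. Top2a had 52 UMIs (9.38 CPM) in Control and 116 UMIs (55.4 CPM) in pIVCL, a ratio of 5.90 (4.22 to 8.35). Ube2c stood at 2.71 and 23.4 CPM, Mki67 at 7.76 and 40.6 CPM and Birc5 at 2.53 and 21.0 CPM, and these 4 had the largest log2 ratios of the class. Cdk1 stood at 7.58 and 36.3 CPM, and Ccnb1 had 1 and 3 UMIs. Of the S members, Rrm2 had 4 UMIs (0.721 CPM) in Control and 29 UMIs (13.8 CPM) in pIVCL, a ratio of 19.2 (6.74 to 75.1), while Pcna stood at 40.04 and 64.9 CPM and Mcm5 at 17.9 and 30.5 CPM. Cdkn1a stood at 95.8 and 169 CPM, and Ccnd1 in the reverse order at 498 and 301 CPM. In LSEC-like cells positive for neither set, 16 members were measured with a median of 0.07, and the 11 positive pIVCL cells held 82.5% of the G2/M UMIs of the class in that library.

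Kupffer-like cells showed S and G2/M members on opposite sides. Of 29 members measured, 16 were above 0, beside 37.5% of all genes (median 0.05, beside −0.14 over all genes). These were 1 of 10 S members (median −0.61), 12 of 14 G2/M members (median 0.62) and 3 of 5 others. A log2 ratio of 1 was passed by 2 members on the higher side, beside 5.13% of all genes, and by 0 on the lower side, beside 2.22%. Cenpf had 15 UMIs (10.9 CPM) in Control and 48 UMIs (39.7 CPM) in pIVCL, and Cdkn1a 31 UMIs (22.6 CPM) and 62 UMIs (51.2 CPM). Mcm6 stood at 38.6 and 17.4 CPM and Mcm3 at 60.5 and 29.8 CPM. Mki67 stood at 36.4 and 57.9 CPM, Top2a at 42.3 and 52.9 CPM, Cdk1 at 15.3 and 29.8 CPM and Ccnb1 at 7.29 and 8.27 CPM. The CPM of G2/M members was thus higher in pIVCL while the share of positive cells was lower, and no order of G2/M activity is read for this class. Pcna stood at 72.2 and 52.1 CPM, Mcm5 at 40.1 and 20.7 CPM, and Ccnd1 was nearly equal at 174 and 180 CPM. The G2/M values rest on few cells. The 11 positive pIVCL cells held 77.6% of the 509 G2/M UMIs of the class, and the 12 positive Control cells 66.8% of 373. In pIVCL 3 cells held 113, 107 and 103 of these UMIs. In Kupffer-like cells positive for neither set, 13 members were measured (median −0.17), 8 of them S members (median −0.35).

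B cell-like cells held few member UMIs. Of 14 members measured 9 were above 0, beside 57.1% of all genes (median 0.25, beside 0.08 over all genes). A log2 ratio of 1 was passed by 1 member, beside 6.11% of all genes, and −1 by 0, beside 0.941%. That member was Pcna, with 6 UMIs (13.1 CPM) in Control and 72 UMIs (34.4 CPM) in pIVCL. Cdkn1a had 2 and 28 UMIs, Mcm7 stood at 32.8 and 17.7 CPM, Mcm5 at 15.3 and 11.0 CPM, Ccnd1 at 39.4 and 34.9 CPM, Top2a had 3 and 26 UMIs, and Mki67 (3 and 11 UMIs), Cdk1 (1 and 6 UMIs) and Ccnb1 (1 and 5 UMIs) were near the floor of 3 UMIs in Control.

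In T cell-like cells 4 of 20 measured members were above 0 (median −0.43), beside 50.2% of all genes. On the lower side 5 members passed a log2 ratio of −1, beside 2.32% of all genes, and on the higher side 1, beside 6.83%. Ube2c had 40 UMIs (39.9 CPM) in Control and 3 UMIs (3.88 CPM) in pIVCL, and Cdc20, Cenpf and Birc5 followed at 22.0, 33.0 and 39.9 CPM in Control and 3.88, 7.76 and 10.4 CPM in pIVCL. These Control values come almost wholly from the 2 cells named above. Mki67 was equal within counting error at 39.9 and 41.4 CPM, Top2a stood at 46.9 and 32.3 CPM, Cdk1 had 5 and 3 UMIs and Ccnb1 13 and 4 UMIs. Pcna stood at 44.9 and 47.9 CPM and Mcm5 at 33.96 and 25.9 CPM. Ccnd1 was the higher member, at 12.98 and 34.9 CPM, and Cdkn1a had 6 and 12 UMIs.

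**Figure D5:**
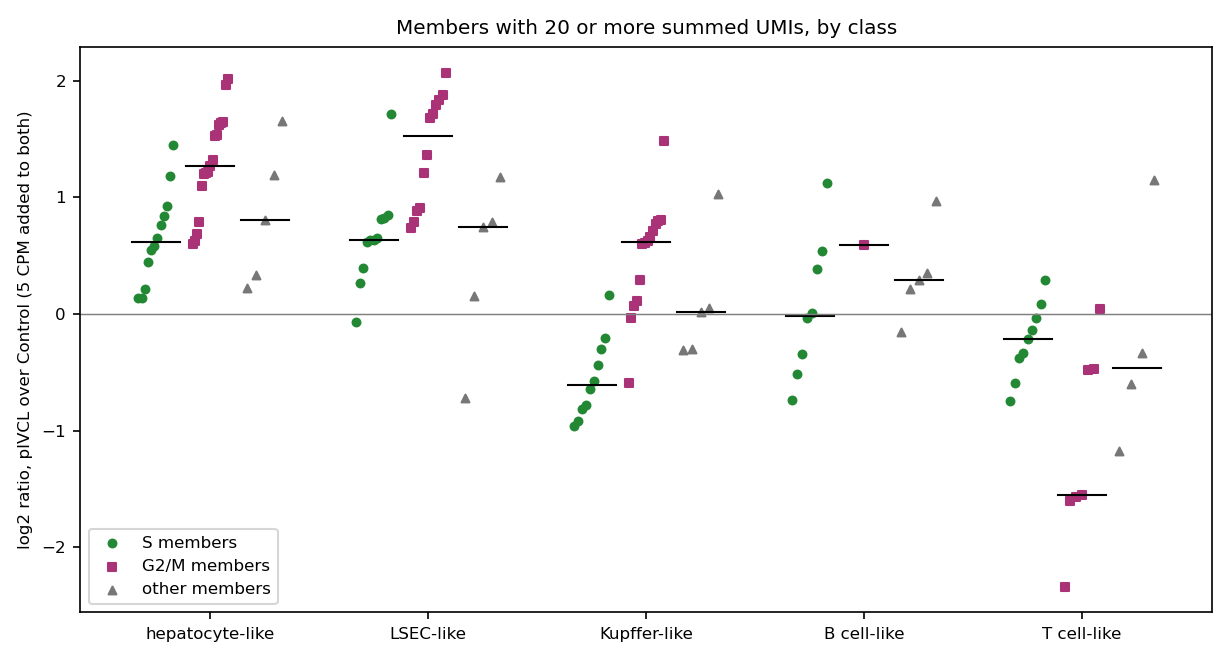
Log2 ratio of CPM, pIVCL over Control with 5 CPM added to both (y axis), for each member with at least 20 summed UMIs, by class (x axis) and group of members; black lines are medians. S and G2/M members lie above 0 in hepatocyte-like cells (medians 0.62 and 1.27), on opposite sides in Kupffer-like cells (−0.61 and 0.62), and below 0 in T cell-like cells (−0.22 and −1.55).

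In vascular endothelial-like cells (166 Control and 66 pIVCL cells), Mcm5 had 8 UMIs (5.92 CPM) in Control and 17 UMIs (50.3 CPM) in pIVCL. There Pcna stood at 27.4 and 23.7 CPM, Ccnd1 at 129 and 148 CPM and Cdkn1a at 68.0 and 79.9 CPM, and Mki67 (1 and 3 UMIs), Top2a (2 and 5), Cdk1 (7 and 2) and Ccnb1 (0 and 0) gave too few UMIs to read an order. Hepatic stellate-like cells, the pericytes of the sinusoid (169 and 60 cells), held Mki67 and Top2a at 1 UMI each in Control and 0 in pIVCL, Cdk1 at 9 and 1 UMIs and Ccnb1 at 0 in both. Their Pcna stood at 23.4 and 29.4 CPM, Mcm5 had 11 and 2 UMIs, Ccnd1 stood at 136 and 138 CPM, and Cdkn1a at 25.2 and 49.9 CPM (ratio 1.98, 1.02 to 3.75). Cdkn1a was thus at a higher CPM in pIVCL in all 7 named classes with at least 50 cells in each library (but not in the unnamed cells, at 47.9 and 34.2 CPM), with a ratio interval above 1 in hepatocyte-like, LSEC-like, Kupffer-like and hepatic stellate-like cells.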

How the data were processed

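Counts of UMIs per gene and cell barcode were deposited by the authors as whole numbers without normalization, made with Cell Ranger 3.0.2 and mm10, per the submitters' processing notes. The library kit was a 10x Genomics 3′ kit, per the labels' protocols. The file of each library held no barcode under 500 UMIs. Barcodes were kept from 500 UMIs and 200 genes up to 25% mitochondrial UMIs (830 Control and 1554 pIVCL barcodes were over that limit), and Scrublet calls were removed. Both libraries were clustered together (scanpy 1.11.5, leidenalg 0.10.2, Leiden resolution 1, 20 neighbours, 30 principal components, 2000 variable genes), leaving out 137 cell cycle genes. Clusters that mixed markers of 2 classes were clustered again, which was decided after seeing the data, giving 42 clusters. They were named from 174 markers of 24 classes, of which 19 were present. Python 3.11.15, numpy 2.4.6, scipy 1.17.1, scikit-learn 1.9.0 and matplotlib 3.10.9 were used.

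UMIs were summed per class, scaled to CPM and compared as log2 ratios with 5 CPM added, for genes with at least 20 summed UMIs in classes with at least 100 cells in each library. Shares carry exact Clopper-Pearson intervals, levels exact Poisson intervals and ratios conditional exact binomial intervals, at 95%. The floor for a 0 was set at 3 UMIs or cells. The summing and thinning steps were tested on simulated data. Named are all 34 members by library total, 8 of them (Mki67, Top2a, Cdk1, Ccnb1, Pcna, Mcm5, Ccnd1 and Cdkn1a) in classes with at least 50 cells in each library, the 4 members with the largest absolute log2 ratio per compared class, and the 4 such genes of each other list in hepatocyte-like cells. Of these, 1 gene is not reported here. Those lists were other S and G2/M genes, cyclin-dependent kinase inhibitors, G1 cyclins and pocket proteins, p53 targets, and pericentral and periportal hepatocyte genes. Other genes were named after their values were seen. The members, lists and measures were chosen with earlier results of these data known. Alternatives changed the thinning depth and draw, gene number, cell filter, clustering, gene lists, added CPM and cells included.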

Additional observations from a re-analysis of the deposited data

Results flagged for a closer look

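Barcodes over the mitochondrial limit of 25% entered comparisons only where that limit was dropped, but G2/M members were found in them in the pIVCL library. After thinning to 1000 UMIs, 24 of 1368 such pIVCL barcodes were G2/M-positive (1.75%, exact interval 1.13% to 2.60%, median depth 5143 UMIs before thinning). In the Control library 0 of 613 were, which allows a share of up to 0.489% (exact upper limit 0.60%), at a median of 2166 UMIs. The pIVCL share is above both limits, and the part that depth plays in it was not tested.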

How the results depend on the processing

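No paired analysis was possible because each group held 1 library, and no library could be left out for the same reason. The ratio of G2/M-positive shares over all kept cells (2.20) became 3.86 at 2000 UMIs per cell and 4.05 without cells that hold markers of another class. It reversed to 0.935 when the wider G2/M list replaced the members. In hepatocyte-like cells the ratio (2.83) reversed to 0.776 without clusters 2 and 12, and lay between 1.36 and 6.89 under the other 16 alternatives. Its interval also included 1 at 500 UMIs per cell (0.671 to 5.60) and under the stricter cell filter (0.316 to 12.2). The same held at cluster resolution 2 (0.972 to 10.3) and with classes set cell by cell from marker UMIs (0.946 to 10.2). The number of classes with a higher pIVCL share (4 of 6) was 2 when 3 genes were required, 2 of 5 with cell cycle genes kept in clustering, 2 with another thinning seed and 1 of 1 without cells that hold markers of another class. The S part, 68.4% in Control and 40.6% in pIVCL, was 70.1% and 49.7% under the stricter cell filter, 30.4% and 25.9% with the wider lists, 74.5% and 56.3% after thinning, 75.3% and 47.2% without Mki67 and Top2a, 43.9% and 24.3% without Mcm2 to Mcm7, 85.5% and 45.5% without the 10 cells richest in G2/M UMIs, and 63.5% and 29.6% without cells that hold markers of another class (38.7% in pIVCL when hepatocyte markers were not counted). The pIVCL value was the lower of the pair under each of these. The median log2 ratio in hepatocyte-like cells (1.01) was 0.54 with the wider lists, 1.69 and 0.44 with 1 and 20 CPM added, and 0.33 without clusters 2 and 12. The median interval ends spanned 0 in the last of these (−1.12 and 1.43) and under the stricter cell filter (−0.06 and 2.29). The number of classes with a median above 0 (4 of 5) was 2 of 5 with the wider lists and 1 of 1 without cells that hold markers of another class. The cause of these shifts was not tested. The second clustering, the seed, clusters 2 and 12, the uncounted hepatocyte markers the 10 cells and the single uncalled hepatocyte-like cell were chosen after seeing the data.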
